A study of Mus musculus with 12 samples.

Results

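The chaperones and proteases of mitochondria were examined in mouse hearts that lack Sdhaf4, an assembly factor of respiratory complex II. The group holds 10 genes chosen by name, namely the folding chaperones Hspd1, Hspe1, Hspa9 and Trap1, the matrix protease genes Clpp, Clpx and Lonp1, and the inner membrane protease genes Yme1l1, Afg3l2 and Oma1. Each was found as 1 row among the 43686 rows of the count table, and all 10 passed the filter on low counts, which left 17155 rows. Ventricular wall RNA was sequenced from 6 control hearts with floxed Sdhaf4 alleles and no Cre (WT, labelled wild type) and from 6 hearts labelled Sdhaf4-/- (KO), in which, by the methods, Ckmm-Cre deletes the floxed alleles. The muscle creatine kinase promoter drives this Cre in cardiac and skeletal muscle. An effect of the Cre transgene itself cannot be told apart from that of the deletion, since the WT mice carry none. The strain is C57BL/6 in the labels and C57BL/6J in the methods. The labels give an age of 2 months in both groups. The study's text on the sequencing gives a younger age, in weeks, after naming the mutant and the control hearts together. Its reporting summary names male mice for the molecular and omics work, at either of 2 ages in weeks. The older of these is about the age in the labels.

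Most mitochondrial proteins are made in the cytosol and threaded as unfolded chains through the translocases of the outer and inner membrane. In the matrix, the Hsp70 encoded by Hspa9 pulls the chain in, and the Hsp60 chamber (Hspd1) with its Hsp10 lid (Hspe1) lets it fold, while Trap1 is the Hsp90 of mitochondria. Proteins that misfold or are in excess are degraded by ATP-driven proteases, which in the matrix are LONP1 and the CLPXP complex (the unfoldase Clpx on the peptidase Clpp). In the inner membrane these are the i-AAA protease YME1L and the m-AAA protease made of AFG3L2 and paraplegin (Spg7). Oma1 is a peptidase that is activated by stress and cuts the fusion protein OPA1 and the stress messenger DELE1. Hearts are rich in mitochondria, and a loss of balance between import, folding and degradation is known to start a transcriptional stress response, in which the heat shock factor Hsf1 and the integrated stress response factors Atf4, Atf5 and Ddit3 (CHOP) take part.

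The DNA before the start sites of 3 members is shown because, among the members for which a sequence was at hand, Hspe1 and Clpx fell by the most and Lonp1 was the gene that rose. Of the 10 members, 8 had an entry in the RefSeq promoter table (build GRCm38.p6, mouse reference), which gives 250 bases before and 50 after each start site. Hspa9 and Afg3l2 had none. The lines give the 150 bases before the start site, 5′ to 3′ on the strand of the gene. In Hspe1 the capitals mark a block of alternating TTC and GAA units, the letters that heat shock factors are known to read, and in Clpx they mark the letters GCGCANGC, on either strand, of the respiratory gene factor NRF1. In Lonp1 none of the 7 motifs searched was present.
Hspe1, chr1:55087998-55088147, plus strand: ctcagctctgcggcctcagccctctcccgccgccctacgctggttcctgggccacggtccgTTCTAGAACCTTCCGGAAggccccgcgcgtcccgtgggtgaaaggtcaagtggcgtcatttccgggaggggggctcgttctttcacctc
Clpx, chr9:65294110-65294259, plus strand: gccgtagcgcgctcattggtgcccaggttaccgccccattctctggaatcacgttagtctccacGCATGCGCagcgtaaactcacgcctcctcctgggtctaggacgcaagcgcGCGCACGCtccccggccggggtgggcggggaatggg
Lonp1, chr17:56626904-56627053, minus strand: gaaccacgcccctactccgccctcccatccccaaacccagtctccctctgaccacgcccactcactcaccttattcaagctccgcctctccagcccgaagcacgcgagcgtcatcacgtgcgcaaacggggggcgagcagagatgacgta

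The Hspe1 block is 18 bases long, holds 4 alternating units and lies 89 to 72 bases before the start site. Only 8 of the 32851 windows of the table (0.024%) hold 4 such units in a row, and they include the Hspe1 window. Hspd1 and Hspe1 lie head to head, and 1 of the windows listed for Hspd1 spans the same block and shares 285 of its 300 bases with that of Hspe1, all identical on the opposite strand. A shorter match, GAANNTTC or TTCNNGAA, was present in 15.1% of all windows, and among the other members only Clpp had one, TTCNNGAA, 34 bases after its start site. The NRF1 letters GCGCANGC were found in 9.95% of all windows and in those of Clpx, Oma1 and Hspd1. The letters AAGGTCA, known from the estrogen-related receptors, were in 4.72% of all windows and in those of Hspd1, Hspe1 and Trap1. The cyclic AMP response element TGACGTCA was in 1.79% of all windows and, among the members, in that of Trap1 alone. The ATF4 composite letters TGATGNAA occurred in 3.97% of all windows and in none of the member windows, and the CCAAT box in 37.4% of all and in those of Hspd1, Yme1l1 and Clpx. The member windows were 56.7% to 73.3% G and C, against a median of 52.7% over all windows. Such matches describe the letters of these windows and were not measured as binding.

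Sdhaf4 itself checked the labels. It lay between 14.3 and 30.3 CPM (the share of counts in a library times 1e6, scaled by TMM) in the WT libraries and between 2.25 and 2.73 CPM in the KO libraries, with WT replicate 6 at the low end of WT (log2 fold change -3.39, standard error 0.16, adjusted p = 1.95e-10 from edgeR). The libraries held 23747014 to 27159228 counts in WT and 26542930 to 31393393 in KO. The tissue carried the cardiomyocyte markers at 62483 to 69087 CPM in sum in WT and 47258 to 66510 CPM in KO, with 6 of 10 markers lower and none higher. The 8 fibroblast markers summed to 1420 to 1670 CPM in WT and 2584 to 4867 CPM in KO, with 8 of 8 higher. Of the endothelial markers 3 of 6 were higher and 1 was lower (summed 1342 to 1487 CPM in WT and 1535 to 1817 CPM in KO). Among macrophage markers 1 of the 5 tested was higher and 2 were lower (165 to 220.1 CPM in WT, 159.7 to 200.3 CPM in KO), and among smooth muscle markers 2 of 4 were lower (169 to 335 CPM in WT, 163 to 259 CPM in KO). Skeletal muscle markers summed to at most 10.2 CPM and lymphocyte markers to at most 2.85 CPM in any library, and no marker was without counts in all libraries. In bulk tissue, fewer cells of a type and less RNA per cell cannot be told apart, and the part that these shifts have in the results below was not tested. KO replicate 3 stood apart from the other KO libraries in several of the genes described here. KO replicate 6 was the lowest KO library for Hspd1 (152 CPM) and Hspe1 (76.3 CPM) and the highest for Afg3l2 (339 CPM). KO replicate 3 was the KO library nearest to WT for 5 of the 8 members that changed, and KO replicate 1 was nearest for the other 3. KO replicate 3 also had 7971 CPM of the cardiomyocyte calcium pump Atp2a2, a marker chosen after its values were seen, against 4525 to 5645 CPM in the other KO libraries and 9880 to 11683 CPM in WT. The cardiomyocyte markers did not all place this library between the other KO libraries and WT. Myh6 (18628 CPM), Tnnt2 (10852 CPM), Actc1 (7188 CPM) and Ryr2 (1691 CPM) were above their highest WT values of 18336, 9310, 5548 and 1639 CPM.

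Of the 10 members, 2 rose and 6 fell in KO when an adjusted p of 0.05 was the limit (quasi-likelihood test of edgeR, adjusted over all 17155 rows), and the other 2 did not pass. Lonp1 and Afg3l2 were the members that rose, by 1.40-fold and 1.55-fold. Hspe1 and Clpx fell by the most among the members, to 0.573 and 0.570 of their WT levels, followed by Trap1, Clpp, Hspd1 and Oma1. Over all rows tested, 25.6% rose and 25.5% fell, so that a call by itself is common in this comparison. All KO libraries lay above all WT libraries for 2 members and below them for 4, against 14.9% and 15.2% of all rows. With the stricter thresholds of the methods (an adjusted p of 0.005 and a log2 fold change beyond 1 either way), which 10.2% of all rows passed, none of the 10 members was called. The median log2 fold change of the members was -0.23, beside 0.00 over all rows, and the median absolute log2 fold change was 0.39, beside 0.30. With each library left out in turn, 2 members stayed higher and 5 to 7 were lower. The count was 7 without KO replicate 3, where 9003 rows were called in all, beside 8767 with all libraries. It was 5 without WT replicate 6, KO replicate 2 or KO replicate 4.

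**Figure D1:**
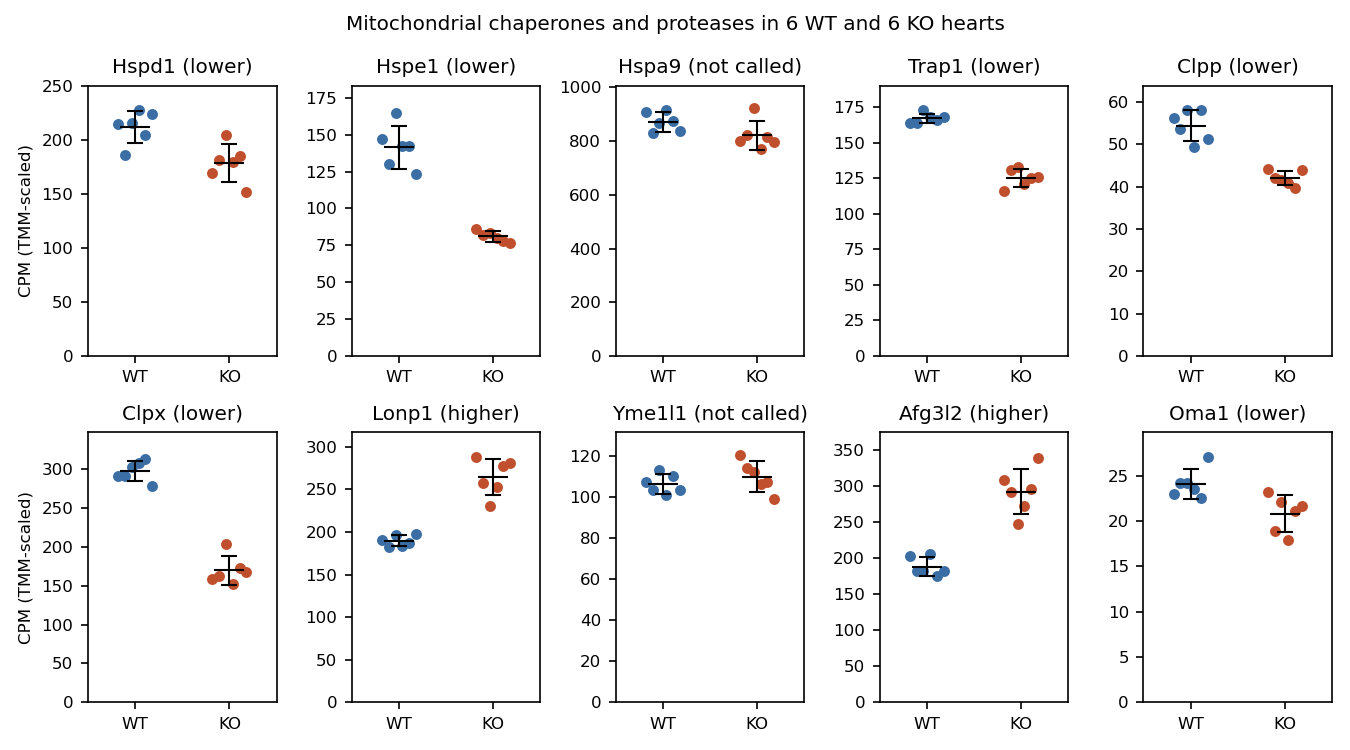
Each panel plots CPM (TMM-scaled, linear axis from 0) of 1 member in the 6 WT (blue) and 6 KO (red) hearts, with 1 point per library and bars for the mean and SD. The KO points lie below all WT points for Hspe1, Trap1, Clpp and Clpx, above them for Lonp1 and Afg3l2, and overlap with WT for the other 4 members.

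The Hsp10 gene Hspe1 (MGP_C57BL6NJ_G0016422, chromosome 1, 57072560 to 57075735, plus strand, all positions on the C57BL/6NJ assembly) ranged from 123 to 165 CPM in the WT libraries with a median of 142, and from 76.3 to 86.2 CPM with a median of 81.0 in the KO libraries. The groups were apart, and the KO libraries were closer to each other (3.63 CPM SD, n = 6) than the WT libraries (14.4 CPM SD, n = 6). The log2 fold change was -0.80 (standard error 0.06, adjusted p = 2.01e-08). Its neighbour and partner Hspd1 (MGP_C57BL6NJ_G0016421, chromosome 1, 57052193 to 57072671, minus strand), the Hsp60 that forms the folding chamber, had 186, 215 and 228 CPM as the lowest, median and highest WT values and 152, 181 and 205 CPM as those of KO. In 5 KO libraries Hspd1 was below every WT library, and KO replicate 3, at 205 CPM, was within the WT range. Hspd1 fell by 0.25 on the log2 scale (standard error 0.07, adjusted p = 0.00536, 95% interval -0.39 to -0.10), less than Hspe1, whose interval was -0.93 to -0.67. The spans of the rows overlap by 112 bases on opposite strands, and whether strand was used in the counting is not given in the sources used here. Processed pseudogenes of both genes are known (5 named for Hspd1, 6 for Hspe1 and 1 for Hspa9 in the mouse reference annotation), and the table names none of them, so the share of reads that such copies took is uncertain.

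Hspa9 (MGP_C57BL6NJ_G0024663, chromosome 18, 34444840 to 34461824, minus strand), the mitochondrial Hsp70 (mortalin), had 829 to 916 CPM in WT (median 869) and 769 to 923 CPM in KO (median 808). In 5 KO libraries it was below every WT library, and in KO replicate 3 it was above all of them. It did not pass the test (log2 fold change -0.09, standard error 0.05, 95% interval -0.20 to 0.03, adjusted p = 0.201), and without KO replicate 3 it did (log2 fold change -0.13, adjusted p = 0.0304). Trap1 (MGP_C57BL6NJ_G0022876, chromosome 16, 540421 to 589100, minus strand), the mitochondrial Hsp90, was at 164 to 173 CPM in WT (median 167) and at 116 to 133 CPM in KO (median 125). The groups were apart, the WT libraries varied by 2.05% (coefficient of variation), the lowest value among the members, and Trap1 fell by 0.42 on the log2 scale (standard error 0.04, adjusted p = 6.6e-07). The end of its row overlaps that of Dnase1 by 54 bases.

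**Figure D2:**
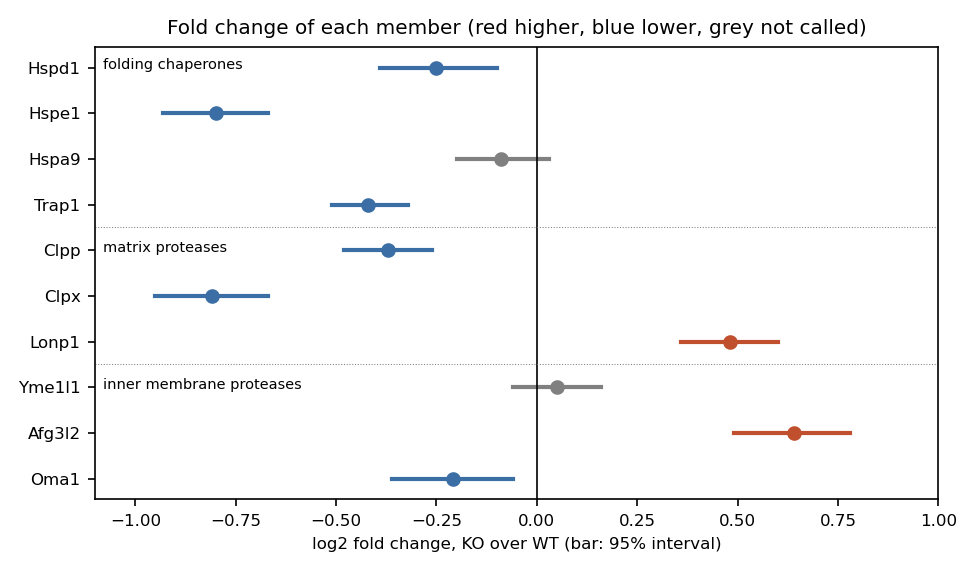
The log2 fold change of KO over WT (horizontal axis) is drawn for each member by role, with the 95% interval from edgeR as a bar, red for higher, blue for lower and grey for not passing the test. Lonp1 (0.48) and Afg3l2 (0.64) lie to the right of 0, Hspe1 (-0.80) and Clpx (-0.81) farthest to the left, and the bars of Hspa9 and Yme1l1 cross 0.

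The matrix proteases moved in opposite directions. Clpx (MGP_C57BL6NJ_G0035445, chromosome 9, 66789490 to 66827289, plus strand), the unfoldase that feeds substrates to CLPP, had 278 to 313 CPM in WT (median 297) and 152 to 204 CPM in KO (median 165). All KO libraries were below all WT libraries, with KO replicate 3 the highest of them, and Clpx fell by 0.81 on the log2 scale (standard error 0.06, adjusted p = 2.58e-08), or by 0.88 without KO replicate 3. Clpp (MGP_C57BL6NJ_G0024350, chromosome 17, 60998299 to 61004406, plus strand), the peptidase itself, had 49.3 to 58.1 CPM in WT (median 54.9) and 39.6 to 44.2 CPM in KO (median 41.9). Here too the groups were apart, and the fall was 0.37 on the log2 scale (standard error 0.05, adjusted p = 1.73e-05). Lonp1 (MGP_C57BL6NJ_G0024337, chromosome 17, 60575693 to 60588277, minus strand), which degrades oxidised and unassembled matrix proteins, went the other way. It had 182 to 198 CPM in WT (median 189) and 231 to 288 CPM in KO (median 267), and its log2 fold change was 0.48 (standard error 0.06, 95% interval 0.36 to 0.60, adjusted p = 1.74e-06). The lowest KO library, KO replicate 3, was above the highest WT library.

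Among the inner membrane proteases, Afg3l2 (MGP_C57BL6NJ_G0024937, chromosome 18, 69481291 to 69526468, minus strand), the m-AAA subunit that can also assemble without paraplegin, had 175 to 206 CPM in WT (median 183) and 248 to 339 CPM in KO (median 295). The groups were apart, and the log2 fold change of 0.64 (standard error 0.07, 95% interval 0.49 to 0.78, adjusted p = 7.64e-07) was the highest among the members. Yme1l1 (MGP_C57BL6NJ_G0025814, chromosome 2, 21502630 to 21553021, plus strand), the i-AAA protease that faces the intermembrane space, had 101 to 113 CPM in WT (median 105) and 99.0 to 120.4 CPM in KO (median 109.5). The groups overlapped, and the log2 fold change was 0.05 (standard error 0.05, adjusted p = 0.462), with a 95% interval of -0.06 to 0.16 that leaves room for a small change either way. Oma1 (MGP_C57BL6NJ_G0028930, chromosome 4, 107643360 to 107707123, plus strand), which cuts OPA1 and DELE1, had 22.5 to 27.1 CPM in WT (median 23.9) and 17.9 to 23.2 CPM in KO (median 21.4). In 5 KO libraries it was below every WT library, while KO replicate 1 was within the WT range. It fell by 0.21 on the log2 scale (standard error 0.07, adjusted p = 0.0207), a call that was lost without WT replicate 6 (adjusted p = 0.0522), KO replicate 2 (0.0527) or KO replicate 4 (0.0525) and with a gene length trend (0.0572).

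Levels of different genes were compared per length, as deposited FPKM (fragments divided by the length of the gene and by the size of the library). In the WT hearts Hspa9 had the highest level of the members, 663 ± 20.8 FPKM (SD, n = 6), followed by Trap1 (175 ± 4.13 FPKM), Hspe1 (162 ± 14.3 FPKM), Clpx (157 ± 4.19 FPKM) and Hspd1 (132 ± 9.39 FPKM). The proteases Lonp1 (63.9 ± 2.82 FPKM), Yme1l1 (62.4 ± 2.23 FPKM) and Afg3l2 (61.0 ± 4.01 FPKM) came next on this scale, with Clpp (45.0 ± 2.66 FPKM) and Oma1 (26.1 ± 2.24 FPKM) below them. The ranges of the WT libraries overlapped between Trap1 and Hspe1, between Hspe1 and Clpx, between Lonp1 and Yme1l1 and between Yme1l1 and Afg3l2. The order of these neighbours within a library was not tested. In the KO hearts Hspa9 (625 ± 29.2 FPKM), Trap1 (131 ± 5.0 FPKM) and Hspd1 (112 ± 10.6 FPKM) came first. Afg3l2 (95 ± 10.2 FPKM), Hspe1 (93.3 ± 5.06 FPKM), Clpx (89.6 ± 7.74 FPKM) and Lonp1 (89.4 ± 8.25 FPKM) followed with ranges that overlapped from each to the next, and that of Hspd1 overlapped with that of Afg3l2. Yme1l1 (64.6 ± 5.0 FPKM), Clpp (34.8 ± 1.53 FPKM) and Oma1 (22.6 ± 1.98 FPKM) were lowest. These FPKM values rest on a length that is shorter than the listed one for 7 of the members, by up to 2.77 times for Yme1l1. With the listed length, Hspa9 was still first and Oma1 last in both groups, but Yme1l1 (22.6 ± 0.993 CPM per kilobase in WT) stood below Clpp (45.1 ± 3.01 CPM per kilobase), with ranges apart in both groups. Trap1 stood below Hspe1 and Clpx in WT, and Afg3l2 and Lonp1 came next after Hspa9 in KO, where the ranges of Afg3l2 and Lonp1, of Lonp1 and Hspe1, of Clpx and Hspd1 and of Hspd1 and Trap1 overlapped. In WT the ranges of Hspd1 and Lonp1 and of Lonp1 and Afg3l2 overlapped on this scale.

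Partner genes were then compared within each library, where the scaling of the library cancels. The ratio of Hspd1 to Hspe1 counts was 1.46, 1.43, 1.31, 1.61, 1.45 and 1.82 in WT replicates 1 to 6 and 1.97, 2.23, 2.45, 2.25, 2.37 and 2.00 in KO replicates 1 to 6. All KO ratios were above all WT ratios, a log2 difference of 0.55 (standard error 0.09, two-sided exact permutation test, p = 0.00216, adjusted p = 0.00541 over 5 pairs), and this p is the smallest that 6 against 6 libraries allow. The ratio of Clpp to Clpx counts was 0.193, 0.185, 0.191, 0.160, 0.186 and 0.184 in WT and 0.280, 0.260, 0.204, 0.269, 0.229 and 0.261 in KO. The groups were again apart, with a log2 difference of 0.45 (standard error 0.08, exact permutation adjusted p = 0.00541). The ratio of Afg3l2 to Spg7, the paraplegin of the m-AAA protease, was 1.61 to 2.01 in WT and 1.88 to 2.73 in KO, and the groups met through KO replicate 3, the lowest KO library. Its log2 difference was 0.45 (standard error 0.09, exact permutation adjusted p = 0.00722), and 0.52 without KO replicate 3. The ratio of Yme1l1 to Oma1, the pair that cuts OPA1, was 3.78 to 4.89 in WT and 4.57 to 6.02 in KO with an overlap (log2 difference 0.26, standard error 0.08, exact permutation adjusted p = 0.0108). For Hspa9 and its nucleotide exchange factor Grpel1 the ranges of 6.54 to 7.36 in WT and 6.82 to 7.45 in KO overlapped, and the log2 difference of 0.05 (standard error 0.03) did not pass (exact permutation p = 0.126, adjusted p = 0.126). The share of other gene pairs whose ratio differs was not computed, and 25.6% of all rows rose and 25.5% fell.

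**Figure D3:**
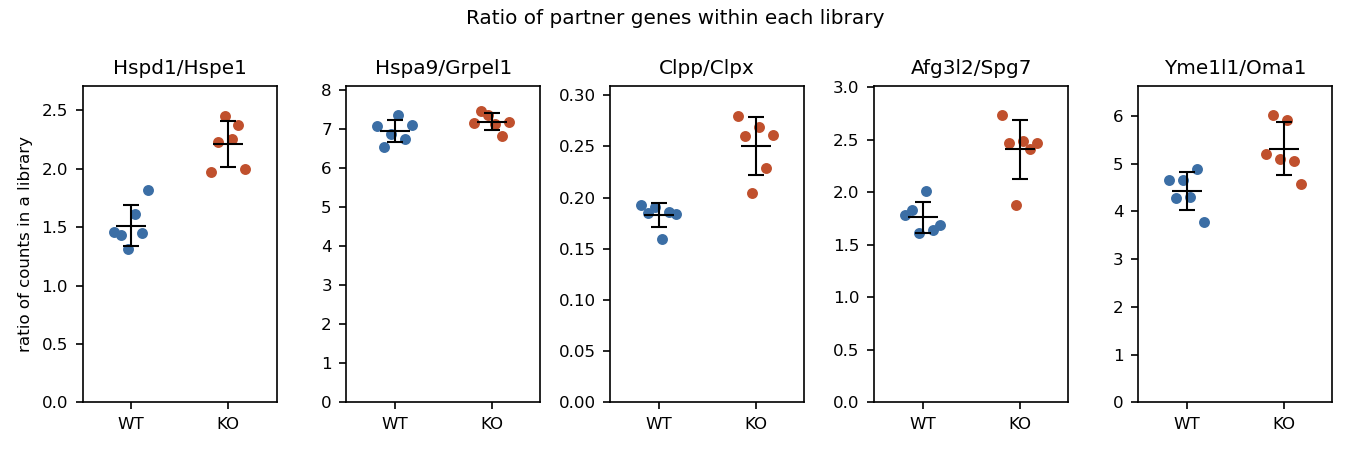
Each panel plots the ratio of the counts of a pair of partner genes (linear axis from 0) in the 6 WT (blue) and 6 KO (red) libraries, with bars for the mean and SD. The KO points are all above the WT points for Hspd1/Hspe1 (1.97 to 2.45 against 1.31 to 1.82) and Clpp/Clpx (0.204 to 0.280 against 0.160 to 0.193) and overlap with WT in the other 3 panels.

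Within a genotype, the log2 CPM of partner genes was compared over the 6 libraries for 3 pairs in WT and in KO, 6 relations in all. None passed a two-sided exact permutation test (the lowest adjusted p was 0.764 for Pearson's r and 0.919 for Spearman's rho). Hspd1 and Hspe1 had r = 0.17 (permutation p = 0.764) and rho = -0.09 (p = 0.919) in WT and r = 0.44 (permutation p = 0.378) and rho = 0.26 (p = 0.658) in KO. Clpp and Clpx had r = 0.33 (permutation p = 0.475) and rho = 0.43 (p = 0.419) in WT and r = -0.18 (permutation p = 0.747) and rho = -0.26 (p = 0.658) in KO. Hspa9 and Lonp1 had r = -0.16 (permutation p = 0.744) and rho = -0.09 (p = 0.919) in WT and r = -0.67 (permutation p = 0.225) and rho = -0.37 (p = 0.497) in KO. Without the 2 libraries farthest from the median of the first gene, r was -0.42 and -0.93 for Hspd1 and Hspe1 in WT and KO, 0.83 and 0.07 for Clpp and Clpx, and -0.58 and -0.85 for Hspa9 and Lonp1. With 6 libraries a genotype, no relation among the partners was detected, and none is excluded.

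The counts of calls in this and the following lists stand beside 25.6% of all rows higher and 25.5% lower. The co-chaperones of Hspa9 and related folding factors were mixed, with 1 of the 9 tested higher, 4 lower and a median log2 fold change of -0.11. Grpel2, the second nucleotide exchange factor of the mitochondrial Hsp70, rose from 16.0 ± 1.36 CPM to 22.5 ± 3.39 CPM (mean and SD of 6 hearts, log2 fold change 0.49, adjusted p = 0.000234 from edgeR), whereas Grpel1 fell from 126 ± 4.20 to 114 ± 6.63 CPM (log2 fold change -0.14, adjusted p = 0.0233). The J proteins Dnajc15 (log2 fold change -0.43, adjusted p = 2.43e-06) and Dnajc19 (-0.34, adjusted p = 0.000922) of the import motor and Hscb (-0.50, adjusted p = 4.3e-05), which serves iron-sulfur cluster transfer, also fell. Timm44 (0.10, adjusted p = 0.114) and Dnaja3 (0.02, adjusted p = 0.797) did not pass. Among 14 other genes of mitochondrial peptidases, their subunits and related factors, 3 were higher and 5 lower (median -0.08). The m-AAA partner Spg7 rose from 107 ± 5.58 to 122 ± 10.8 CPM (0.19, adjusted p = 0.0140), as did the rhomboid protease Parl (0.21, adjusted p = 0.00465) and the intermembrane space protease Htra2 (0.22, adjusted p = 0.0127), with values under those of Afg3l2 (0.64) and Lonp1 (0.48). Among these 14 genes, Immp1l, Metap1d and Mipep fell by the most. Immp1l, a subunit of the inner membrane signal peptidase, fell from 78.5 ± 4.56 to 34.9 ± 2.79 CPM (-1.17, adjusted p = 1.81e-10) and the methionine aminopeptidase Metap1d from 45.2 ± 2.46 to 25.0 ± 2.90 CPM (-0.85, adjusted p = 4.74e-08). The intermediate peptidase Mipep fell from 86.8 ± 6.22 to 52.9 ± 3.52 CPM (-0.71, adjusted p = 3.4e-08).

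Of 11 genes that encode scaffolds or known substrates of the inner membrane proteases, 3 were higher and 5 lower (median -0.00). The lipid carrier Prelid1, which YME1L degrades, rose from 27.1 ± 2.42 CPM to 42.0 ± 3.47 CPM (mean and SD of 6 hearts, log2 fold change 0.63, adjusted p = 1.12e-06 from edgeR). The phosphatase Pgam5 (0.32, adjusted p = 7.85e-05) and the translocase subunit Timm17a (0.17, adjusted p = 0.0143) rose by less. The prohibitins Phb (-0.32, adjusted p = 7.05e-06) and Phb2 (-0.34, adjusted p = 4.23e-06), which form the ring around the m-AAA protease, fell, and so did Dele1 (listed as 0610009O20Rik), the OMA1 substrate that relays mitochondrial stress, from 135 ± 5.43 to 88.4 ± 3.47 CPM (-0.62, adjusted p = 8.12e-09). Among 6 regulators of mitochondrial and heat shock responses, 2 were higher and 1 was lower. Ddit3 rose from 15.0 ± 2.84 to 29.0 ± 2.19 CPM (0.95, adjusted p = 9.39e-07) and Atf4 from 86.4 ± 6.48 to 108 ± 5.21 CPM (0.32, adjusted p = 0.000121), and Hsf1 fell from 30.7 ± 1.56 to 22.4 ± 1.62 CPM (-0.46, adjusted p = 7.2e-06). The groups were apart for these 3 genes. Atf5 (0.15, adjusted p = 0.0962), Cebpb (-0.20, adjusted p = 0.354) and the kinase Eif2ak1, which senses DELE1 (-0.04, adjusted p = 0.523), did not pass.

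Outside these groups, 3 of the 14 import translocase subunits tested were higher and 7 lower (median log2 fold change -0.15). Timm22 (0.46, adjusted p = 0.000131), Tomm70a (0.25, adjusted p = 0.000271) and Tomm22 (0.16, adjusted p = 0.0190) rose. Timm8b (-0.28, adjusted p = 7.54e-05), the channel subunit Timm23 (-0.28, adjusted p = 0.000452) and Tomm7 (-0.29, adjusted p = 0.00452) fell. Chaperones outside mitochondria (cytosol) were split, with 3 of the 18 tested higher, 4 lower and a median of 0.00. The list held 22 genes, and Hspa8, Hspa1a, Hsp90aa1 and Cct6a had no row of their own, so these counts leave them out. Hspa4 (0.39, adjusted p = 3.26e-06) and the chaperonin subunits Cct8 (0.26, adjusted p = 0.000205) and Cct3 (0.24, adjusted p = 0.000525) rose, while Cct4 (-0.37, adjusted p = 1.27e-05), Cct7 (-0.20, adjusted p = 0.00184) and Hsp90ab1 (-0.36, adjusted p = 0.000109) fell. Nuclear-encoded respiratory chain subunits are main clients of folding and assembly in the matrix and inner membrane. A chosen list of 25 covered a part of complexes I, III and IV and of ATP synthase, and none of complex II. Of these genes 24 were lower and none was higher, with a median of -0.37 and a range of -0.57 to 0.08. Among them, Uqcrc1 fell by 0.52 (adjusted p = 3.06e-07), Atp5c1 by 0.53 (adjusted p = 7.18e-07) and Ndufs1 by 0.54 (adjusted p = 1.25e-06) on the log2 scale, and the ATP synthase subunit Atp5d (0.08, adjusted p = 0.186) was the gene that did not pass. Beside the median of these subunits, the falls of Trap1 (-0.42) and Clpp (-0.37) were of like size, those of Hspe1 and Clpx were beyond the range of the subunits, and Lonp1 and Afg3l2 lay on the other side of it.

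**Figure D4:**
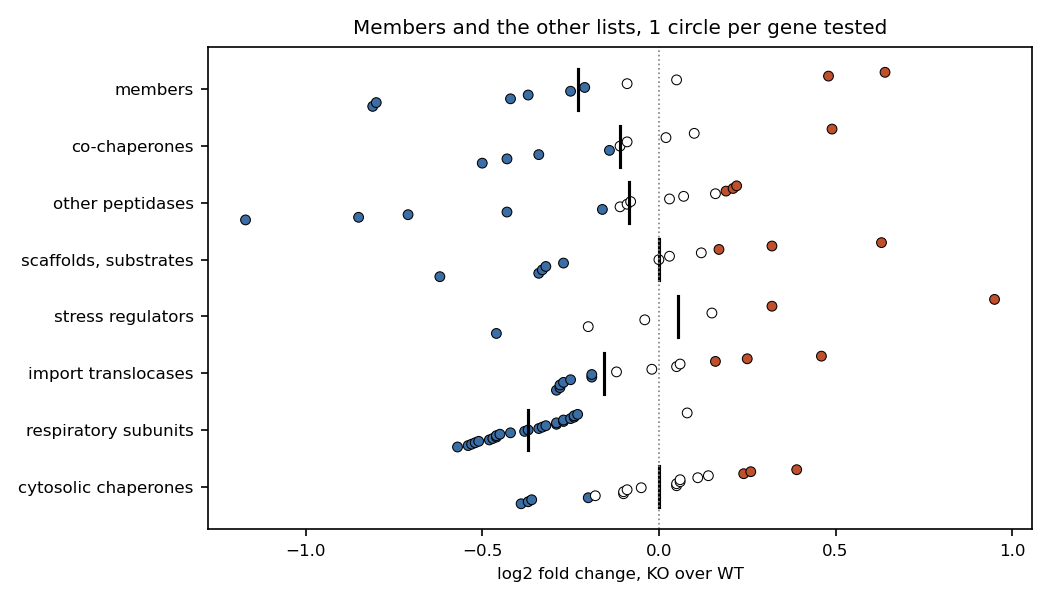
The log2 fold change of KO over WT (horizontal axis) is plotted for each gene tested of the members and of 7 other lists, red for higher, blue for lower and open for not passing the test, with a black bar at the median of each list. The respiratory subunits lie to the left of 0 but for Atp5d, whereas the members spread from -0.81 to 0.64 around a median of -0.23.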

How the data were processed

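The authors purified mRNA of 6 WT and 6 KO hearts on poly-T beads, mapped the reads (HISAT2 2.0.5 per the labels), counted them per gene with HTSeq and deposited raw counts per library. The labels name mm10, whereas the identifiers in the table belong to the C57BL/6NJ assembly, and all gene positions are on that assembly. Whether strand was used in the counting is not given in the sources used here. The authors also deposited FPKM per library. For 42.1% of the rows with at least 10 counts in a library, these values follow from the listed gene length (within 1%), and for the others they imply another length, so levels were compared on both scales. The fold changes and p-values of the authors' own DESeq comparison were not used.

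Counts were filtered with filterByExpr, scaled by TMM and tested with the quasi-likelihood test with robust dispersions (edgeR 4.0.16, R 4.3.3), adjusted by Benjamini-Hochberg over the 17155 rows kept. Partner ratios (pseudocount 0.5 counts) and correlations were tested by exact permutation (SciPy 1.17.1). No pair of replicates was closer than 6.99 (chi-square over its degrees of freedom), and each was counted as 1 sample. Nothing in the labels says that each library is a separate animal. The legend of the study's sequencing figure names left ventricles of mice with n = 6. Each library is called 1 heart here on that basis, and the p-values measure the spread between these samples.

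The members and all lists were chosen with earlier results of these data known. All 10 members, Grpel1, Spg7 and Sdhaf4 are named, and of each other list but the cell type markers up to 3 genes with the smallest p in each direction. The cardiomyocyte markers Atp2a2, Myh6, Tnnt2, Actc1 and Ryr2 are named for their values in KO replicate 3 and not by p. Of 159 list entries, 7 had no row of their own and 4 were found by an older symbol. The alternatives were other scalings (upper quartile, library size only, size factors of DESeq2), other filters, DESeq2 1.42.0, limma-voom (limma 3.58.1), no robust dispersions, a replicate block, the table without unannotated loci, a gene length trend, and each library left out in turn.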

Additional observations from a re-analysis of the deposited data

Results flagged for a closer look

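In 36 groups of 6 values examined (Sdhaf4, the members, their partners and the partner ratios in WT and in KO), 5 held a highest or lowest value whose gap to the nearest other value exceeded the limit of Dixon's test at the 95% level, and chance alone gives about 1.80 such groups. KO replicate 3 accounted for 2 of the 5. Its Hspa9 level was 923 CPM, against 769 to 823 CPM in the other KO libraries, and its ratio of Afg3l2 to Spg7 counts was 1.88, against 2.41 to 2.73. Oma1 was at 27.1 CPM in WT replicate 6, against 22.5 to 24.2 CPM in the other WT libraries. The ratio of Clpp to Clpx counts was 0.160 in WT replicate 4, against 0.184 to 0.193 in the other WT libraries. Sdhaf4 was at 2.73 CPM in KO replicate 1, against 2.25 to 2.41 CPM in the other KO libraries.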

How the results depend on the processing

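Each member was refitted under 23 alternatives, and no member changed direction under any of them. The count of members that rose stayed at 2, and that of members that fell was 5 to 7 with a library left out and 5 to 6 otherwise, while the rows called over the whole table were 8767 as reported, 7947 to 9133 under other settings and 8268 to 9003 with a library left out. Hspa9 passed only without KO replicate 3 (-0.13, adjusted p = 0.0304), and Oma1 did not pass with a gene length trend (-0.17) or without WT replicate 6 (-0.18), KO replicate 2 (-0.18) or KO replicate 4 (-0.17). The ratio of Hspa9 to Grpel1 was between 0.03 and 0.07 on the log2 scale with a library left out and passed without WT replicate 4 (0.07, exact permutation adjusted p = 0.0346) or KO replicate 5 (0.06, adjusted p = 0.0476). The correlations, of which none passed, changed sign with library size as the only scaling (Hspd1 with Hspe1 in WT, -0.04, and Clpp with Clpx in WT, -0.03) and without the 2 farthest libraries (Hspd1 with Hspe1, -0.42 in WT and -0.93 in KO, and Clpp with Clpx in KO, 0.07), and the cause was not tested. With the replicate number as a block, which the labels do not tie to a shared litter or day, 2 members were higher and 6 lower, 8233 rows were called (Hspd1 -0.25, adjusted p = 0.0125), and the block changed no call of a member or a ratio. Same-numbered libraries did not deviate together (correlation of their deviations -0.16 to 0.02), and WT libraries matched the KO library of their own number best in 1 of 6 cases. No scaling moved the median of all genes by more than 0.02 on the log2 scale. Adding pseudogene copies to the counts of a member was not run, since the table names none. The member with the fewest counts was Oma1 (17.9 to 27.1 CPM), and how far depth limits each member was not tested.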
